A study of Bos taurus with 6 samples.

Results

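The genes described are 10 of the Notch pathway and of protein O-fucosylation. They are the O-fucosyltransferases POFUT2 and POFUT1, the fringe enzyme LFNG, the ligand JAG1, the receptors NOTCH1, NOTCH2 and NOTCH3, and the target genes HES1, HEY1 and HEY2. They were found by gene symbol and chosen with their ratios on these arrays already known. Probes named for 9 of them, 15 probes in all, were on the array, among 15229 genes read by a named probe. NOTCH3 was not analysed here.

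The cells were granulosa cells, the somatic cells around the oocyte, taken from 2 to 6 mm follicles of Holstein crossbred cattle at an abattoir. All were cultured without serum in the presence of FSH and insulin, at 10 ng/ml each. On day 5 some cultures were given 10 ng/ml of FGF18, a fibroblast growth factor, over 2 h, and the control cells were untreated. The source name of the control ends in T0, and the labels do not say whether it was collected at the start or the end of those 2 h. Each of 6 two-colour arrays carried RNA of FGF18-treated cells and RNA of control cells, 3 labelled with FGF18 in Cy5 and 3 the other way round. They were taken as 3 biological replicates of 2 arrays with opposite dyes, paired by the number in their labels. The labels do not state this pairing outright. The labels do not say how many animals went into a replicate, so the spread below is that between these 3 replicates.

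Notch receptors are cell surface proteins whose extracellular part is built from EGF-like repeats. A ligand of the Jagged or Delta family on a neighbouring cell triggers their cleavage by an ADAM protease and then by gamma-secretase, and the released intracellular part binds RBPJ in the nucleus and switches on HES and HEY genes, which encode transcriptional repressors. POFUT1 adds fucose to EGF-like repeats, Notch among them, and fringe enzymes such as LFNG extend that fucose and change which ligands a receptor prefers. POFUT2 adds fucose to another module, the thrombospondin type 1 repeat, and is not known as a Notch enzyme. In the mouse ovary, JAG1 of the oocyte and NOTCH2 of granulosa cells are a known ligand and receptor pair.

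Of 18 granulosa markers, 16 exceeded background on 3 or more arrays of 1 condition, while FOXL2 and HSD17B1 were so on 0 arrays and CYP19A1, aromatase, on 2 arrays for FGF18 and 4 for control. Markers of other cells were also read, 14 of 16 for theca and stroma and 9 of 12 for endothelium. For leukocytes and blood it was 9 of 12, and for the oocyte 6 of 10. The same bound was passed by 80.1% of all genes, so these counts do not tell which cells were present. A spot was above background where it exceeded the mean of the negative control spots by 2 SD. Between 45.7% and 73.5% of probes were so per channel, and precision is limited by having 6 arrays. Across 12200 genes above background, and across genes, which are not independent, the correlation of the ratios was -0.26 between replicates 1 and 2, -0.07 between 1 and 3, and 0.40 between 2 and 3. Each ratio given is the log2 of FGF18 over control, and each gene is read by its brightest probe unless another is named.

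In the comparison of FGF18-treated with control cells, POFUT2 had the highest mean ratio of the 15229 genes, 1.12 ± 0.43 (SD, n = 3), or 2.18-fold. JAG1 and HEY2 had positive means of 0.46 ± 0.46 and 0.36 ± 0.40. LFNG and NOTCH1 had negative means of -1.19 ± 1.60 and -1.12 ± 1.45, with opposite signs among the replicates. POFUT1, NOTCH2, HES1 and HEY1 had means within 0.08 of 0. With limma and Benjamini-Hochberg adjustment over all genes, 0 of the 15229 genes had an adjusted p under 0.05 (0%), and 3.49% of them had an unadjusted p under 0.05. Among the 9 genes, 0 passed the adjusted threshold and 1, POFUT2, had an unadjusted p under 0.05. Background was exceeded on 3 or more arrays of 1 condition by 8 of the 9, as by 80.1% of all genes. A mean ratio of at least 1.5-fold in either direction was found for 3 of the 9, against 1.79% of all genes, and of at least 2-fold higher for 1, POFUT2, against 0.0131%. The levels of FGF18 and control cells were apart without overlap for 0 of the 9, against 5.77% of all genes. Because the ratios were known when the genes were chosen, nothing is read from these counts.

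**Figure D1:**
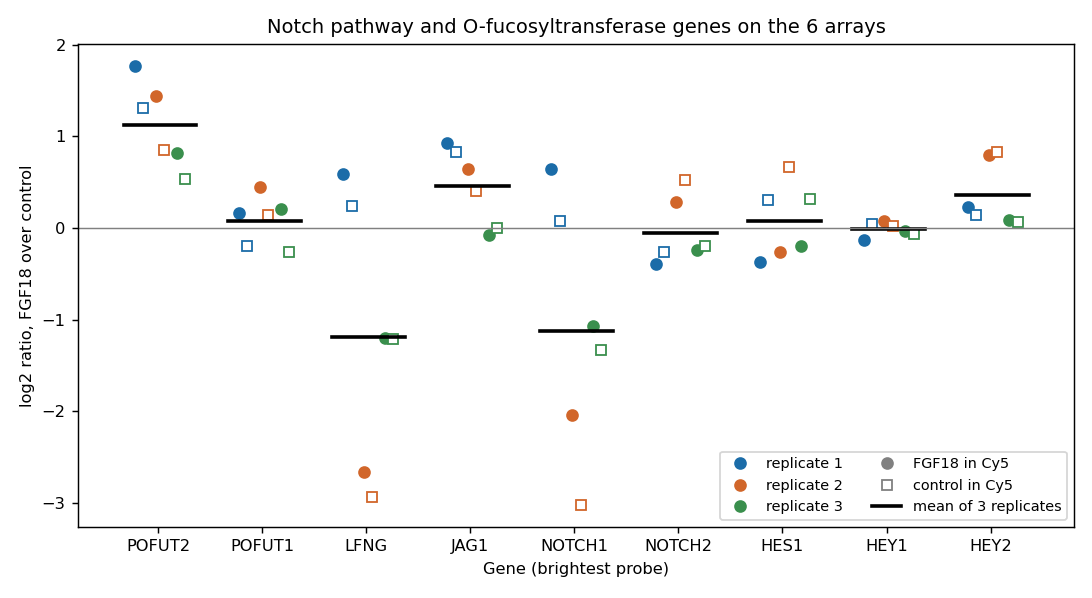
Log2 ratio of FGF18 over control (y axis) for the brightest probe of each of the 9 genes (x axis) on the 6 arrays. Filled circles are arrays with FGF18 in Cy5, open squares arrays with the control in Cy5, colours mark the replicate, and black bars are the means of 3 replicates. POFUT2 lies above 0 on all 6 arrays, from 0.54 to 1.77, while LFNG and NOTCH1 lie above 0 in replicate 1 and reach -2.93 and -3.02 in replicate 2.

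POFUT2 had ratios of 1.77, 1.44 and 0.82 on the arrays with FGF18 in Cy5, and 1.31, 0.85 and 0.54 where the control was in Cy5, in replicates 1, 2 and 3. All 6 were positive, and replicate 3 gave the lowest value in each dye orientation. A positive ratio on all 6 arrays was found for 4.47% of all genes. Its normalised log2 intensity was 8.12, 9.70 and 9.37 in the FGF18 cells of replicates 1, 2 and 3, against 6.58, 8.55 and 8.69 in the control cells. FGF18 was higher within each replicate, but the groups overlapped, since the FGF18 cells of replicate 1 lay below the control cells of the other replicates. The spread of the level between replicates, with an SD of 0.83 for FGF18 and 1.18 for control, was larger than the spread of the ratio, 0.43.

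The spots of POFUT2 were of modest brightness. Their intensity in replicate 1 was 275 and 320 for FGF18, against 113 and 94.3 for control, with the array that carried FGF18 in Cy5 first in each pair. In replicate 2 it was 899 and 920 for FGF18, against 392 and 489 for control, and in replicate 3 it was 683 and 749 for FGF18, against 426 and 414 for control. The FGF18 spots exceeded background on all 6 arrays and the control spots on 5, the exception being the first control spot of replicate 1. The 10 spots beside it in the files' order had median ratios between -0.17 and 0.09 on the 6 arrays, so the ratio of POFUT2 was not shared by its neighbours. POFUT2 was read by a single named probe.

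The genes whose 6 ratios lay nearest to those of POFUT2, among 12199 others above background, were DCP1B, LRPAP1, CXXC5, MRPL57 (listed as MRP63) and KLHL22. DCP1B, a subunit of the mRNA decapping complex, lay at a root mean square distance of 0.35 and had 1.55, 0.71 and 0.40 in replicates 1, 2 and 3. LRPAP1, a chaperone of LDL receptor family proteins, lay at 0.41 with 1.19, 0.57 and 0.50. KLHL22, an adaptor of a cullin ubiquitin ligase, lay at 0.46 with 1.07, 0.84 and 0.38. CXXC5, a zinc finger protein, and MRPL57, a mitochondrial ribosomal protein, both at 0.41, had mean ratios of 0.80 and 0.90. Such likeness was searched for over 6 arrays only, and by construction it finds genes of high ratio.

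POFUT1 stood near 0. Its ratios were 0.16, 0.45 and 0.21 with FGF18 in Cy5 and, on the swapped arrays, -0.20, 0.14 and -0.26, in replicates 1, 2 and 3. The mean was 0.08 ± 0.18, with a 95% interval in limma from -0.20 to 0.37. Its other probe gave 0.11, -0.09 and 0.01 in the replicates. Both probes lay low on the scale, with log2 levels of the brighter one between 7.08 and 7.30 in FGF18 cells, against 7.01 to 7.31 in control cells.

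**Figure D2:**
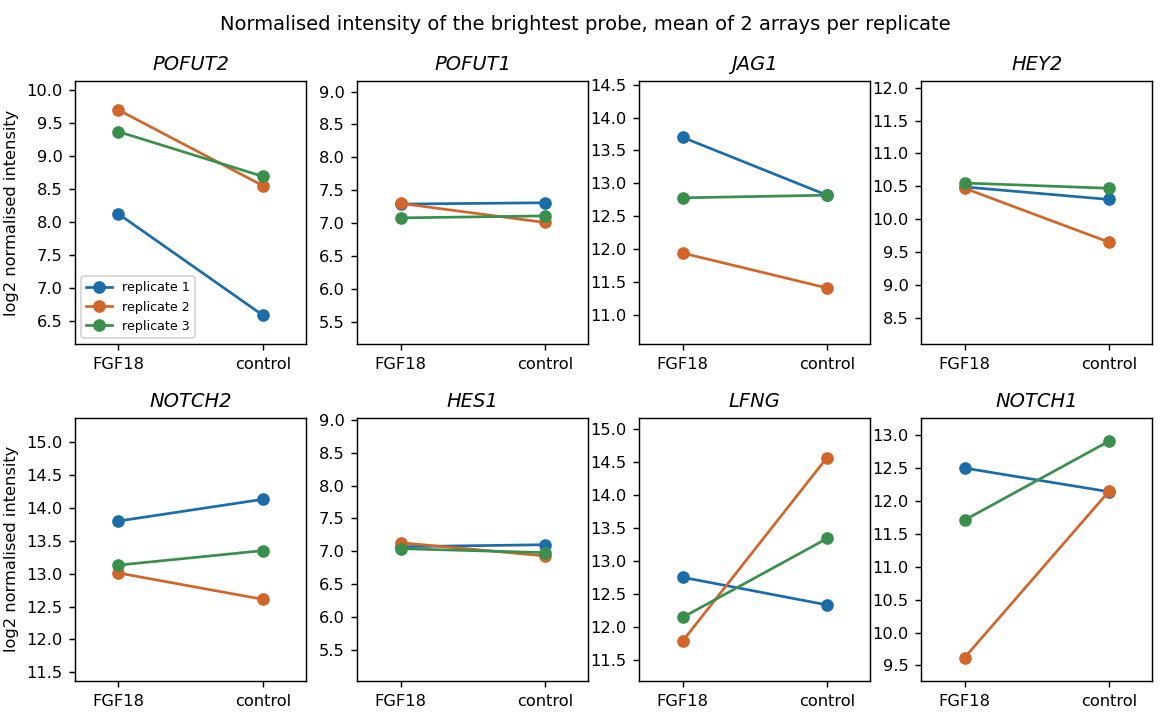
Normalised log2 intensity (y axes, each spanning the same range of log2 units) of the brightest probe of 8 genes in FGF18-treated and control cells (x axes), as the mean of the 2 arrays of each replicate. Lines join the conditions of 1 replicate. The lines of POFUT2 all run downward from FGF18 to control, and those of LFNG and NOTCH1 run upward in replicates 2 and 3 and downward in replicate 1.

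JAG1 is the Jagged ligand of this set. Its brightest probe had ratios of 0.93, 0.64 and -0.08 with FGF18 in Cy5 and, on the swapped arrays, 0.83, 0.41 and 0.00. Replicates 1 and 2 were positive on both arrays and replicate 3 lay near 0, and the mean of 0.46 ± 0.46 was 0.25 without replicate 1. The log2 level was 13.70, 11.94 and 12.78 in FGF18 cells of replicates 1, 2 and 3, against 12.82, 11.41 and 12.82 in control cells. The second probe, also above background on all arrays, gave 0.67, 0.10 and 0.19. The third, above background on 3 arrays per condition, gave -0.10, 0.14 and -0.17. The 3 probes therefore did not give 1 value for the gene. Their mean log2 intensities were 12.54 for the brightest and 7.5 and 6.72 for the others, in the order given. A change may not register in full on spots that dim, so whether the probes disagree cannot be judged.

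Of the receptors, NOTCH2 was measured at a high signal. Its log2 level was 13.80, 13.01 and 13.13 in FGF18 cells of replicates 1, 2 and 3, against 14.13, 12.61 and 13.35 in control cells. The ratios were -0.32, 0.40 and -0.22, each with the same sign on both arrays of the replicate, and the mean was -0.05 ± 0.39 with an interval from -0.57 to 0.47. Replicate 2 lay on the other side of 0 from the rest. RBPJ, the DNA-binding partner of the cleaved receptor, had -0.82, 0.35 and -0.20, with a mean of -0.23 ± 0.59.

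NOTCH1 was read by 1 bright probe and by dim ones. The brightest had ratios of 0.36, -2.53 and -1.20 in replicates 1, 2 and 3, and its log2 level was 12.50, 9.62 and 11.71 in FGF18 cells, against 12.14, 12.15 and 12.91 in control cells. The other probes gave -0.11, -0.13 and 0.05, and -0.17, -0.01 and 0.07. In FGF18 cells these probes exceeded background on 4 and 2 arrays, and in control cells on 6 and 3. The large negative ratios of replicates 2 and 3 were thus seen with 1 of 3 probes. That probe had a mean log2 intensity of 11.83, and the others had 6.88 and 6.72, near background. Spots that dim may not register a change, so the probes cannot be weighed against each other. Read by the next brightest probe, NOTCH1 had a mean ratio of -0.06, against -1.12 by the brightest.

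LFNG, read by 1 probe, had nearly the same profile, 0.42, -2.79 and -1.20 in replicates 1, 2 and 3. On single arrays it had 0.59, -2.66 and -1.20 with FGF18 in Cy5 and, on the swapped arrays, 0.24, -2.93 and -1.21. The log2 level was 12.75, 11.78 and 12.14 in FGF18 cells, against 12.33, 14.57 and 13.34 in control cells. In LFNG the replicates differed mostly in the control, with an SD of 0.49 for FGF18 and 1.12 for control. In NOTCH1 they differed mostly in the FGF18 cells, with 1.48 for FGF18 and 0.44 for control. The ratios of the genes were nevertheless alike in each replicate.

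**Figure D3:**
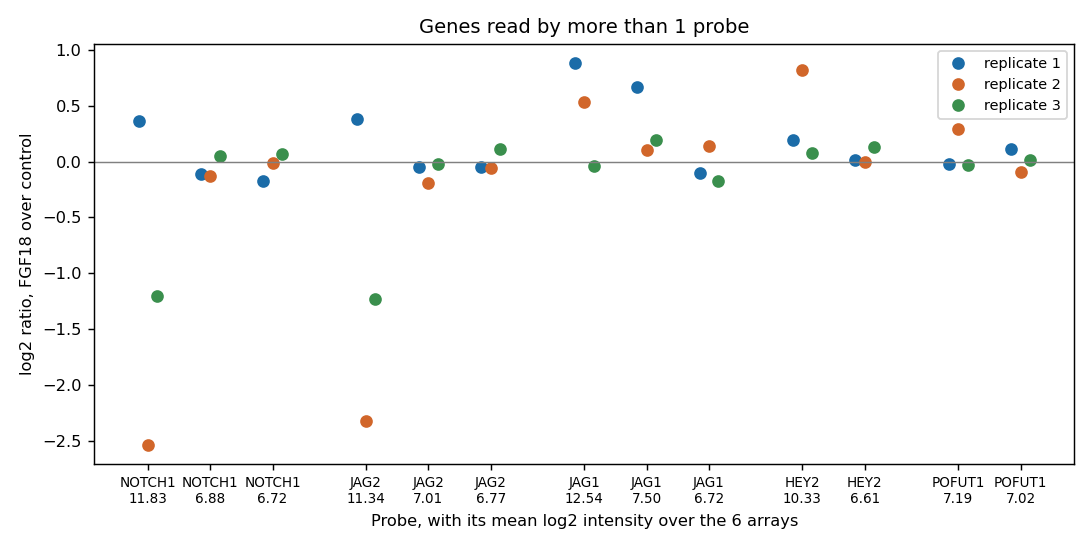
Log2 ratio of FGF18 over control (y axis) in each replicate for every probe of 5 genes, ordered within a gene from the brightest probe to the dimmest (x axis, with the mean log2 intensity). The brightest probes of NOTCH1 and JAG2 reach -2.53 and -2.32 in replicate 2. All their other probes were dim and lie between -0.19 and 0.11.

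Other probes on the array shared this profile. In all, 193 probes, or 0.441% of gene probes, were lower with FGF18 by 2-fold or more on every array of replicates 2 and 3, and they had medians of 0.41, -2.66 and -1.20 in replicates 1, 2 and 3. By their brightest probe 93 genes (0.611%) were among them, including 2 of the 9 genes described, NOTCH1 and LFNG, and 1 of 136 further pathway genes, JAG2. All 193 were higher with FGF18 in replicate 1, from 0.15 to 0.70. JAG2, another Jagged ligand, had 0.38, -2.32 and -1.23 when read by its brightest probe. Its dimmer probes gave -0.05, -0.19 and -0.02, and -0.05, -0.06 and 0.11. Their mean log2 intensities were 7.01 and 6.77, against 11.34 for the brightest. SNW1, a coregulator that binds RBPJ, had 0.34, -2.32 and -0.83, and DLL4, a Delta ligand, had 0.34, -1.26 and -0.32, both outside the 193 by the bound on replicate 3. What sets this profile was not tested.

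Endothelial cells express NOTCH1 and DLL4, and their 12 markers had a summed log2 level of 10.56 to 10.62 in the FGF18 cells and 10.55 to 10.62 in the control cells, with a median ratio of 0.01. PECAM1, FLT1 and TIE1 were above background on 0 arrays. Of the 12 endothelial markers, 2 were above background on all arrays in both conditions. Their sum may therefore hold mostly background, and no amount of endothelial cells is read from it. Single markers of other lists had ratios like those of LFNG and NOTCH1. NR5A2, a nuclear receptor of granulosa cells, had 0.50, -2.81 and -1.33 in replicates 1, 2 and 3, and PTPRC, the leukocyte antigen CD45, had 0.42, -1.46 and -0.91. The 18 granulosa markers had a summed log2 level of 16.38 to 16.81 in FGF18 cells and 16.30 to 16.92 in control cells, with a median ratio of -0.04. The 16 markers of theca and stroma had nearly as much, 16.22 to 16.63 in FGF18 cells and 16.26 to 16.66 in control cells, with a median ratio of 0.01. The 12 markers of leukocytes and blood had 11.80 to 12.00 in FGF18 cells and 11.65 to 12.39 in control cells, with CSF1R and ITGAM above background on 0 arrays. The part of these cells in the profile was not tested. In bulk RNA, fewer cells of a type and less RNA per cell cannot be told apart.

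HES1, HEY1 and HEY2 are readouts of Notch activity in many tissues. HES1 and HEY1 were read by dim spots, with mean log2 intensities of 7.04 and 6.69, against 10.33 for HEY2. Whether the genes shared a pattern could therefore not be judged. HEY2 had ratios of 0.23, 0.80 and 0.09 with FGF18 in Cy5 and, on the swapped arrays, 0.14, 0.83 and 0.07. All 6 were positive and most of the mean came from replicate 2: without it the mean was 0.13, against 0.36 ± 0.40 with it. Its log2 level was 10.49, 10.47 and 10.55 in FGF18 cells, against 10.30, 9.65 and 10.47 in control cells, so the control of replicate 2 stood apart. The other probe of HEY2 was above background on 0 arrays. HEY2 and POFUT2 were the 2 of 9 genes whose 6 arrays all had 1 sign, against 7.2% of all genes.

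HES1 was split by dye. It had -0.37, -0.26 and -0.20 with FGF18 in Cy5 and, on the swapped arrays, 0.31, 0.67 and 0.32, in replicates 1, 2 and 3. The mean of the replicates, 0.08 ± 0.12, is the balance of these, with log2 levels of 7.07, 7.13 and 7.04 in FGF18 cells, against 7.10, 6.93 and 6.98 in control cells. A limma fit with a dye term took the 6 arrays as independent and did not use their pairing by replicate. It gave HES1 a term of -0.36 at an adjusted p of 0.0749. It called 66 of all genes (0.433%) and 0 of the 9 described here. The dye terms of the other 8 genes lay between -0.07 and 0.30. The dye and anything else that differed between the arrays of each orientation cannot be told apart.

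HEY1 lay at background, which its FGF18 spots exceeded on 1 array and its control spots on 2. Its ratios were -0.05, 0.05 and -0.05, and a difference was not detectable at that signal. Further target genes, read by dim spots, also had means near 0. HEYL, a relative of HEY1, had -0.06 ± 0.04, and HES5 and HES7, relatives of HES1, had 0.02 ± 0.04 and 0.05 ± 0.05. The transcription factors GATA3 and SOX9 had -0.12 ± 0.07 and -0.02 ± 0.02. HES5 exceeded background on 1 array in FGF18 cells and 3 in control cells. The mean log2 intensities of HEYL, HES5, HES7, GATA3 and SOX9 lay between 6.67 and 6.92, and none exceeded background on all arrays. Their small SDs therefore do not make these values precise. Among listed target genes above background on all arrays, the SD between replicates ran from 0.07 for MYC to 0.70 for ID1.

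Further genes of the pathway were taken from lists of textbook members. Of 161 entries, 137 could be read, as 136 genes. In limma 0 of the 136 had an adjusted p under 0.05 and 5 had an unadjusted p under 0.05, against 0% and 3.49% of all genes. All 3 replicates were positive for 16 and negative for 15 (11.8% and 11%, against 12% and 12% of all genes). The medians were -0.01 for 9 other receptors and ligands, 0.02 for 24 genes of cleavage and trafficking, -0.02 for 17 of the transcription complex and 0.02 for 18 other target genes, against -0.01 for all genes. For glycosylation they were -0.04 for 8 other genes of O-fucose, O-glucose and fringe glycosylation, -0.03 for 14 genes of GDP-fucose supply and fucose transfer, and -0.03 for 47 proteins with thrombospondin type 1 repeats. The list medians thus lay near that of all genes, but they include genes that did not exceed background. Among genes above background alone, the median was -0.12 for 5 other receptors and ligands and -0.07 for 16 of the transcription complex. It was -0.07 for 30 proteins with thrombospondin type 1 repeats and between -0.04 and 0.02 for the remaining lists, against -0.01 for all genes. Of the other ligands, DLL1 had 0.02 ± 0.09 and exceeded background on 1 array per condition, and MFAP5, a microfibril protein, had -0.12 ± 0.08. NOTCH4, MAML1 and B3GLCT were not analysed here.

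**Figure D4:**
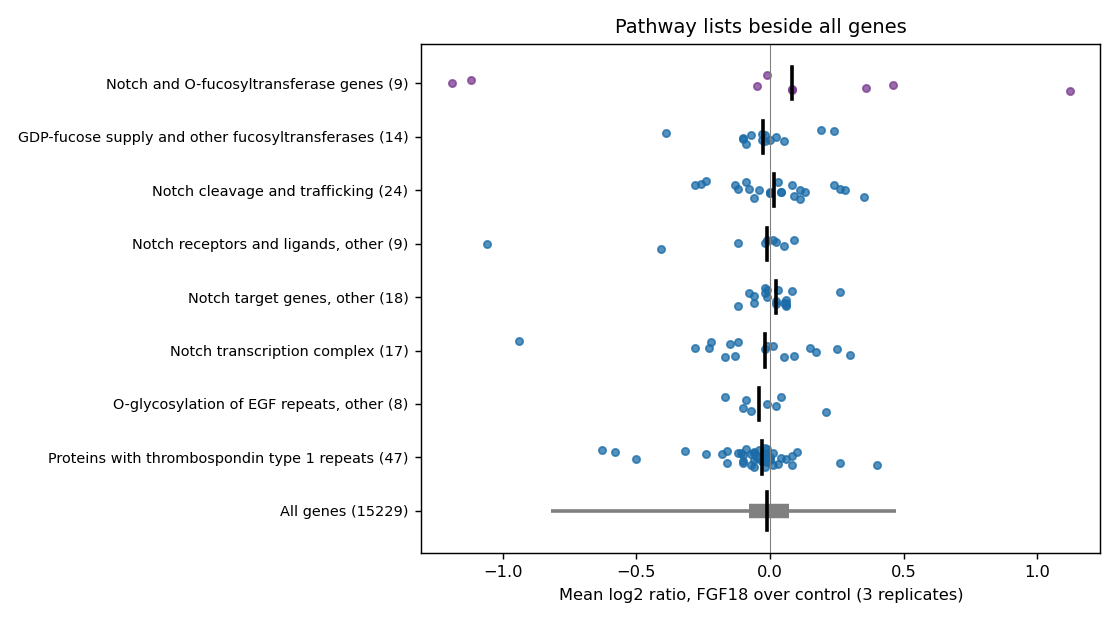
Mean log2 ratio of FGF18 over control (x axis, 3 replicates) for each gene of the 9 members and of the further lists (rows, number of genes in brackets), with all genes in the lowest row. Points are genes, black bars are medians, and the grey bars span the 25th to 75th (thick) and 1st to 99th (thin) percentile of all genes, from -0.08 to 0.07 and from -0.82 to 0.47. POFUT2 lies to the right of every other point and LFNG and NOTCH1 to the left of the thin bar.

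Among the genes that release the Notch intracellular part, APH1B, a subunit of gamma-secretase, had 0.28 ± 0.14, positive in each replicate, and NCSTN, nicastrin, had 0.00 ± 0.07. The proteases ADAM10 and ADAM17 had 0.03 ± 0.11 and 0.13 ± 0.37. FBXW7, the ubiquitin ligase subunit that marks the intracellular part for degradation, had 0.30, 0.64 and 0.10 in replicates 1, 2 and 3. DTX1, a ubiquitin ligase that binds Notch and is also a target gene, had 0.24, 0.39 and 0.15. It was dim, exceeding background on 3 arrays in FGF18 cells and 0 in control cells, and it passed the filter on low values through the FGF18 cells alone. NEDD4, a ubiquitin ligase, had -0.25, -0.46 and -0.01, and FURIN, the protease that matures the receptor, had -0.08 ± 0.05. FURIN exceeded background on 2 arrays in FGF18 cells and 3 in control cells, NCSTN on 3 and 4, and ADAM10 on 4 and 6. Their mean log2 intensities were 6.70, 6.85 and 6.98, so their small SDs do not make these values precise. In the transcription complex, the corepressors NCOR1 and TLE2 had 0.25 ± 0.21 and 0.17 ± 0.12, and HDAC1, a histone deacetylase, had -0.40, -0.03 and -0.03.

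The 8 other genes of O-fucose, O-glucose and fringe glycosylation had mean ratios between -0.17 and 0.21. POGLUT1 (listed as KTELC1), which adds glucose, had 0.01, 0.59 and 0.04. The other fringe enzymes, MFNG and RFNG, had -0.10 ± 0.12 and 0.02 ± 0.42, and neither had the profile of LFNG. The second probe of RFNG gave -0.01 ± 0.05.

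In the list of GDP-fucose supply and fucose transfer, GMDS is the first enzyme of GDP-fucose synthesis. GMDS had 0.27, 0.09 and 0.35 in replicates 1, 2 and 3, with all 6 arrays positive. SLC35C2, linked to Notch fucosylation in the Golgi, had 0.33, 0.17 and 0.08, and SLC35C1, the GDP-fucose transporter, had 0.05 ± 0.21. FUT8, which adds core fucose to N-glycans, had -0.09 ± 0.26. GMDS and SLC35C2 were the 2 of 14 genes of this list that were positive in all 3 replicates (14.3%, against 12% of all genes). Since genes were named in part by having 1 sign in all replicates, nothing is read from this.

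Proteins with thrombospondin type 1 repeats are the class on which POFUT2 acts. THBS1, thrombospondin 1, had -0.68, -0.55 and -0.39 with FGF18 in Cy5 and, on the swapped arrays, -0.64, -0.45 and -0.31. All 6 were negative, as for 2.73% of all genes, and the mean was -0.50 ± 0.15 (adjusted p = 0.986 in limma). Its log2 level was 13.17, 12.42 and 12.93 in FGF18 cells of replicates 1, 2 and 3, against 13.83, 12.92 and 13.29 in control cells, lower with FGF18 in each replicate but with overlapping groups. SPON1, a spondin of the extracellular matrix, had 0.53, 0.19 and 0.49, and -0.22 on 1 of its 6 arrays. ADAMTS1, a matrix protease of the ovulatory follicle, had -0.16 ± 0.22, ADAMTS6 had 0.26 ± 0.19 and CCN3 (listed as NOV) had -0.24 ± 0.18. ADAMTSL5 had -0.38, -1.27 and -0.09. Of the 47 genes of this class, 5 were positive and 7 negative in all 3 replicates (10.6% and 14.9%), near the 12% and 12% of all genes.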

How the data were processed

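All 6 arrays were used. Per the labels' protocols, RNA was amplified by T7 transcription and dye-labelled. Per the file headers, the deposited scanner files give spot and background intensity for each dye, not normalized. The authors' deposited table gives a log2 ratio for every probe and array. It ran as FGF18 over control and correlated at 1 with plain background subtraction followed by loess, with column medians between -0.00375 and 0.0019. Its software is not stated in the labels or headers.

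Using limma 3.58.1 in R 4.3.3, intensities were background-corrected (normexp, offset 50) and loess-normalized within arrays (span 0.3, with weight 0 for 1418 control spots). Every ratio was expressed as FGF18 over control, and both arrays of a replicate were averaged. The 3 replicates were fitted by an intercept with lmFit and eBayes, and p-values were adjusted by Benjamini-Hochberg over 15229 genes at a threshold of 0.05. Levels are log2 intensities after loess and Aquantile. No exact sign-change test is printed, because 3 replicates allow no p under 0.25. The fit was tested on simulated data whose planted changes were larger in size than any mean ratio of these arrays. That test does not show how well ratios of the size reported here can be called.

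Arrays that share a number in the labels correlated at 0.67, 0.77 and 0.27 (0.92, 0.93 and 0.79 once the mean of each orientation was removed) and were paired as dye swaps, which the labels do not state outright. Of 43794 gene probes, 21790 have 1 symbol in the platform annotation and 22004 have none. RefSeq (ARS-UCD2.0) lists 14114 of the 15229 symbols as current, all 9 described here included. Coordinates are left out, because no build is named.

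The members and lists were chosen with earlier results of these data known. Named genes are the members, a fixed panel, the 5 genes nearest to POFUT2, and up to 3 genes per list and direction that were above background with 1 sign in all replicates. SNW1, NR5A2, PTPRC, MYC and ID1 were named after their values were seen. Alternatives changed the background correction, normalization, filter, probe rule, replicates, dyes and prior.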

Additional observations from a re-analysis of the deposited data

Results flagged for a closer look

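In 4 of 43 named genes, all arrays with FGF18 in Cy5 had ratios of 1 sign and all swapped arrays had the other, as did 15.2% of all genes. The value given for each is the dye term, the departure of the ratio from the mean of both orientations where FGF18 was in Cy5. HES1 had -0.36 (adjusted p = 0.0749 in limma), HES5 had -0.11 (adjusted p = 0.344 in limma), HES7 had -0.16 (adjusted p = 0.168 in limma) and NCSTN had -0.16 (adjusted p = 0.161 in limma). The dye term passed the adjusted threshold in 0 of these 4 and in 0.433% of all genes, and 17.9% of all genes had an unadjusted p under 0.05.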

How the results depend on the processing

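Under 19 alternatives 0 genes, 0 of the 9 members and 0 of the further pathway genes passed the adjusted threshold. With the replicate number as a block over the 6 arrays the smallest adjusted p was 0.741, and without that block it was 0.109, with 0 genes passing in both. POFUT2 had 1.12 with and without the block, and between 0.90 (control-in-Cy5 arrays alone) and 1.35 (without replicate 3) over the 19 alternatives, with an adjusted p between 0.171 and 1. HES1 turned with the dye, -0.28 with FGF18 in Cy5 alone and 0.44 with the control in Cy5 alone, and had -0.08 without the control-in-Cy5 array of replicate 2, whose spike-in spots were dim (483 for FGF18 and 1100 for control). POFUT1 had 0.27 and -0.11 in those orientations, and HEY1 had 0.10 with median pixel intensities. LFNG ranged from -2.0 without replicate 1 to -0.39 without replicate 2. NOTCH1 ranged from -1.87 without replicate 1 to -0.06 without the 193 probes of the shared profile, when it was read by a dim probe. It had -0.42 without replicate 2 and -0.41 as the mean of all its probes. JAG1 ranged from 0.25 without replicate 1 to 0.70 without replicate 3. In all, 163 member ratios moved by less than the spread between replicates and 6 by more, as did 114 and 19 list medians. The alternatives without the 193 probes and with median pixels were chosen after seeing the data. Dim spots limit POFUT1, HES1 and HEY1.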
